A study of Arabidopsis thaliana with 12 samples.

Results

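Clade A of the plant type 2C protein phosphatases (PP2Cs) has 9 genes in *Arabidopsis thaliana*. They are *ABI1* (AT4G26080), *ABI2* (AT5G57050), *HAB1* (AT1G72770), *HAB2* (AT1G17550), *AHG1* (AT5G51760), *AHG3* (AT3G11410, also called *PP2CA*), *HAI1* (AT5G59220), *HAI2* (AT1G07430) and *HAI3* (AT2G29380). They were taken by gene identifier from a count table of 33602 genes, without regard to their values, and each had a row in it.

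These phosphatases are the negative regulators at the core of abscisic acid (ABA) signalling. Without the hormone they bind SnRK2 protein kinases and keep them dephosphorylated and inactive. When ABA binds its PYR/PYL receptors, the receptor closes on the phosphatase and inhibits it, the kinases are released, and they phosphorylate bZIP transcription factors of the ABF and ABI5 group as well as ion channels. The phosphatase genes are themselves well known targets of the pathway they restrain, so their transcripts are widely used as markers of an ABA response.

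RNA was sequenced from whole 7-day-old seedlings. The groups were *nup85* seedlings with ABA, *nup85* seedlings with mock treatment, WT seedlings with ABA and WT seedlings with mock treatment, with 3 libraries each. ABA was given at 50 μM for 3 h in liquid Murashige and Skoog medium, and mock seedlings were kept in the same medium without ABA for the same 3 h. The WT is Col-0, and *nup85* is *nup85-1*, a homozygous T-DNA insertion line of *NUP85* (AT4G32910), which encodes a scaffold nucleoporin of the nuclear pore, and the line stands for this mutation by a single allele. Nothing in the labels says that the libraries of a group came from separate cultures, so the p-values below measure the spread between these libraries, which may be technical. In whole seedlings, fewer cells of a type and less RNA per cell cannot be told apart.

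The libraries held 6616931 to 29798437 counted reads. *NUP85* had 3.20, 1.98 and 17.0 CPM (a gene's reads scaled to the TMM-adjusted size of its library) in replicates 1, 2 and 3 labelled *nup85* ABA and 3.54, 1.73 and 27.5 CPM in those labelled *nup85* mock, against 40.0, 41.5 and 29.3 CPM in WT ABA and 31.3, 29.1 and 16.1 CPM in WT mock. Under mock treatment *NUP85* in replicate 3 thus ran against the label, with more in the library labelled *nup85* than in its WT counterpart. Replicate 3 also stood apart in other ways: the summed level of 4 maturing seed markers was 56.9 CPM in the library labelled *nup85* mock replicate 3 and 9.44 CPM in WT mock replicate 3, while the other 4 mock libraries held 0.353 to 0.67 CPM. Every direction between genotypes below therefore refers to libraries as labelled, and results are given for all 3 replicates and, where replicate 3 changed them, for replicates 1 and 2. The green tissue markers, 3 genes with a summed level of 6420 to 27500 CPM, and the 3 root markers, with 7.66 to 25.6 CPM, were present in every group.

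The 9 genes are spread over all 5 chromosomes in the TAIR10.1 annotation. Chromosome 1 carries *HAB1* (27389948 to 27393327), *HAB2* (6034270 to 6037398) and *HAI2* (2280746 to 2282828), chromosome 2 carries *HAI3* (12608675 to 12610350), chromosome 3 carries *AHG3* (3583782 to 3585850), chromosome 4 carries *ABI1* (13219915 to 13222376), and chromosome 5 carries *ABI2* (23087122 to 23089631), *AHG1* (21026805 to 21029188) and *HAI1* (23894404 to 23896939). Each has 3 to 5 exons. The encoded proteins, of 362 to 511 residues, were compared by their identity over aligned residues. ABI1 and ABI2 were 80% identical, HAB1 and HAB2 76.1%, and HAI2 and HAI3 72.3%. HAI1 was about as close to AHG3 (64.9%) as to HAI3 (65.4%) and HAI2 (64.4%). AHG1 was the most distant, with 41.7% (to HAB1) to 50.6% (to HAI3). In spite of these identities no stretch of 70 bases, the length of the trimmed reads, within an exon of any member recurred exactly elsewhere in the genome. Reads that match exactly within an exon can therefore be told apart between the paralogs. Reads across exon junctions or with mismatches were not examined. The 22 exon bases that *ABI1* shares with AT4G26070 on the opposite strand are uncertain, because the strand setting of the counting is not given in the sources used here.

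The 300 bases before the annotated start of each gene were searched on both strands for ACGTG, the core that bZIP factors of the ABF group recognise in ABA-responsive elements. The core was found in 7 of the 9 windows, and in 25.6% of the windows of the same length before 27443 nuclear genes. *AHG3* and *HAI2* had 5 matches each, *HAB2*, *AHG1* and *HAI3* had 2, *ABI1* and *HAB1* had 1, and *ABI2* and *HAI1* had 0. At least 4 matches were present in 1.56% of all windows. A palindromic CACGTG, which counts as 2 overlapping matches, was present once in *AHG3* and once in *AHG1*, and in 7.09% of all windows. The longer forms ACGTGGC or ACGTGTC were found for *ABI1*, *HAB1*, *AHG3* and *HAI2*, and in 7.01% of all windows. In 1000 bases *HAI1* still had 0 ACGTG matches, whereas *ABI2* had 1 and *HAB1* had 6, and 54.4% of windows of that length held at least 1. These are matches of letters, and no match says only that these letters are absent from the window.

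Printed here are the windows of the members at the ends of this range, *AHG3* and *HAI2* with the most matches and *HAI1* with none, together with *HAB2*, the member that changed least with ABA. Each runs 5′ to 3′ along the strand of its gene and ends at the base before the annotated start, with ACGTG on either strand in capitals. In TAIR10.1 they lie at chr3:3585851-3586150 (minus strand), chr1:2282829-2283128 (minus strand), chr5:23896940-23897239 (minus strand) and chr1:6033970-6034269 (plus strand).
AHG3: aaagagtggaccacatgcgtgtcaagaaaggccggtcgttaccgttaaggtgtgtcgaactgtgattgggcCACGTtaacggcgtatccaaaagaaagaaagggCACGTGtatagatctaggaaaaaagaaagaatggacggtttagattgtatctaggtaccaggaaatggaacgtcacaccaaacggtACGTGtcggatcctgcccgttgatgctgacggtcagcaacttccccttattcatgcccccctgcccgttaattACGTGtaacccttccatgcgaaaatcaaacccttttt
HAI2: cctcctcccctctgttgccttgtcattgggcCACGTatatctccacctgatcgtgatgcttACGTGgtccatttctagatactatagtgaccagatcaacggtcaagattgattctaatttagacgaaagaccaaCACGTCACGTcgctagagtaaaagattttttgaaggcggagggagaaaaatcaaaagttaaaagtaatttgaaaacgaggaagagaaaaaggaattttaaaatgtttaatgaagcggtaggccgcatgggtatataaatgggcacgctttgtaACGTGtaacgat
HAI1: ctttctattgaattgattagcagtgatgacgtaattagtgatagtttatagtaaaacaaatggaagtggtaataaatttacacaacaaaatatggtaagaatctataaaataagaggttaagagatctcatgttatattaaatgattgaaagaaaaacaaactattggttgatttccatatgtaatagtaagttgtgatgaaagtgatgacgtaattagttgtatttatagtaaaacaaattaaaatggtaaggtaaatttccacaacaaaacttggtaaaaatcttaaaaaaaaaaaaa
HAB2: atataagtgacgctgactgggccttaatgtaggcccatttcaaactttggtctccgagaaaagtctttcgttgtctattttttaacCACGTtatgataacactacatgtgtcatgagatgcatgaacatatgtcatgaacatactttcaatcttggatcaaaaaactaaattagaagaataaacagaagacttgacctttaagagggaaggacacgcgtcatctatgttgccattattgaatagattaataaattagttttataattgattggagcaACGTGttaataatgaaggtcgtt

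ABA raised the transcripts of the family in both genotypes. In *nup85*, 8 members had enough reads to be tested, and 8 of 8 were higher with ABA at an adjusted p under 0.05 in edgeR's quasi-likelihood test, against 15.4% of 20001 genes. Of them, 6 (*HAI3*, *HAI1*, *HAI2*, *HAB1*, *ABI2* and *ABI1*) also passed a limit of 4-fold, against 3.87% of all genes. In WT, 9 of 9 members were higher at an adjusted p under 0.05, against 16.5% of 20062 genes, and 7 (the same 6 and *AHG1*) were at least 4-fold higher, against 4.06%. The ABA libraries lay above the mock libraries, with no overlap, for 8 of the 8 members tested in *nup85* (25.1% of all genes) and for 9 of 9 in WT (25.5%). The median log2 fold change of the members was 2.49 in *nup85* and 2.80 in WT, beside 0.01 and -0.01 over all genes tested. The summed level of the 3 green tissue markers was lower with ABA in both genotypes. In *nup85* it was 6420 to 17700 CPM with ABA, against 22900 to 27500 CPM under mock treatment. In WT it was 11100 to 16200 CPM with ABA, against 20300 to 26900 CPM under mock treatment. Of these markers, *LHCB1.3* and *LHCB2.1* were lower with ABA without overlap in both genotypes, but *RBCS1A* overlapped in both. *RBCS1A* had 3290, 3210 and 9110 CPM in *nup85* with ABA, against 8320, 7080 and 9440 CPM in *nup85* mock. In WT *RBCS1A* had 4440, 5300 and 11000 CPM with ABA, against 7810, 6370 and 10900 CPM in mock. The 2 guard cell markers summed to 22.2 to 36.5 CPM in *nup85* with ABA, against 27.9 to 29.8 CPM in *nup85* mock, which overlapped. In WT they summed to 15.9 to 26.3 CPM with ABA, against 28.7 to 39.1 CPM in WT mock. In *nup85* *FAMA* had 28.2, 27.8 and 16.4 CPM with ABA, against 19.2, 20.4 and 16.8 CPM in mock. *MYB60* had 6.81, 8.65 and 5.87 CPM there with ABA, against 10.5, 8.13 and 11.1 CPM in mock. None of these 5 genes was at 0 in any group, and their part in the response of the family was not tested.

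**Figure D1:**
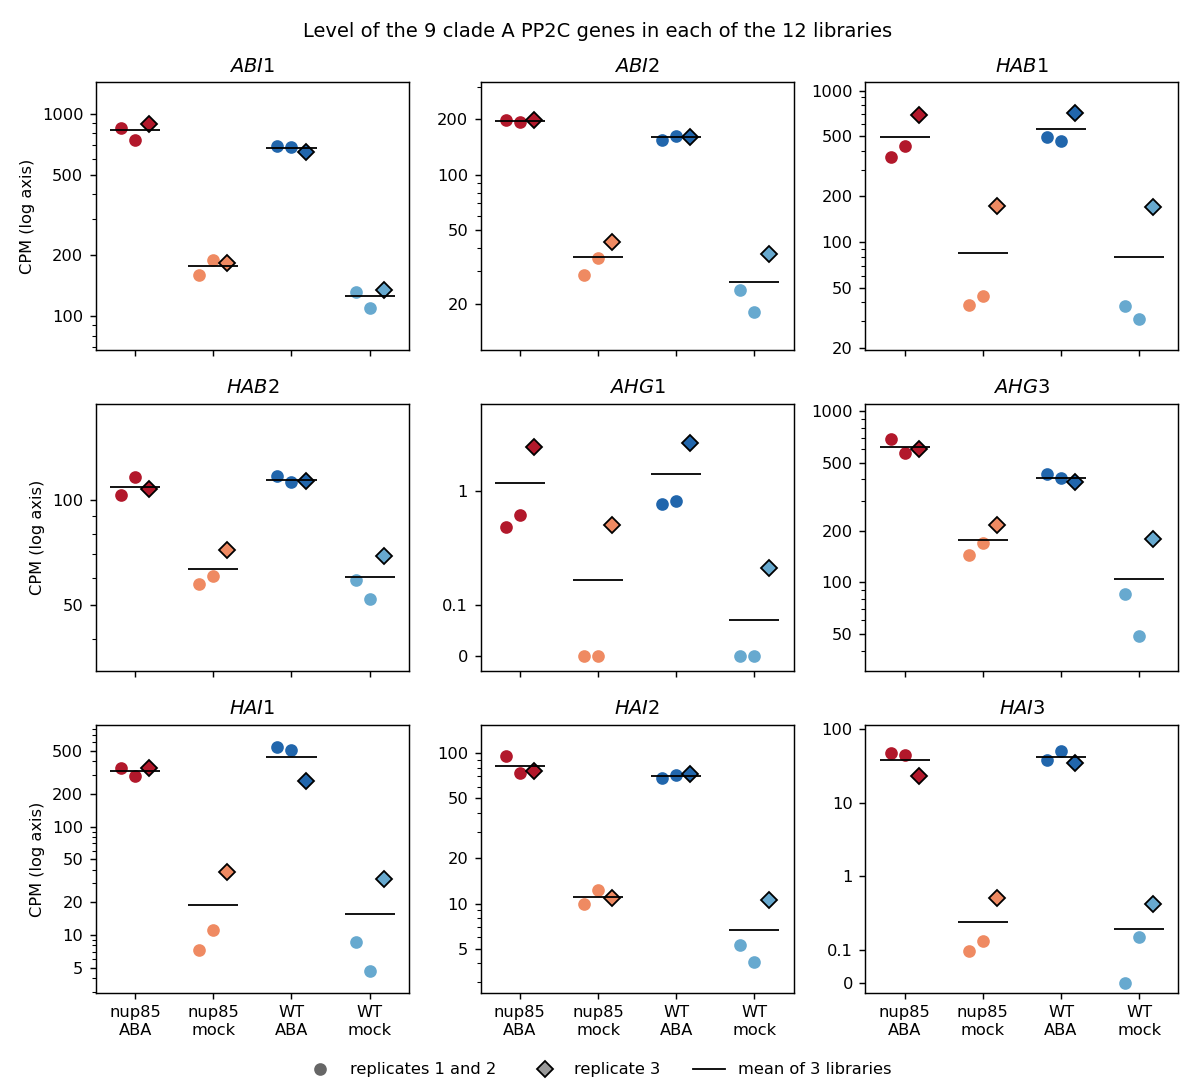
Level of each clade A PP2C gene in the 12 libraries, in CPM on a log axis (linear below 0.1 CPM for *AHG1* and *HAI3*, so that libraries with 0 reads can be drawn); circles are replicates 1 and 2, diamonds with a black edge replicate 3, and black lines the mean of 3 libraries. Within each genotype the ABA libraries sit above the mock libraries for 8 members and, in WT, for *AHG1* too, and replicate 3 is the highest mock library for *HAB1* (172 CPM in *nup85*, 171 CPM in WT) and *HAI1* (38.3 CPM and 33.1 CPM).

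The *HAI* genes, whose name stands for HIGHLY ABA-INDUCED, encode phosphatases that restrain osmotic stress and drought responses in vegetative tissue. *HAI1* had 345, 293 and 344 CPM in *nup85* with ABA, against 7.27, 11.1 and 38.3 CPM in *nup85* mock. In WT it had 537, 513 and 261 CPM with ABA, against 8.65, 4.70 and 33.1 CPM under mock treatment. The treatments were far apart in both genotypes, but replicate 3 was the highest mock library in each and the lowest ABA library in WT. The log2 fold change of *HAI1* was 4.10 in *nup85* (SE 0.64, adjusted p = 0.00499 from edgeR) and 4.81 in WT (SE 0.80, adjusted p = 0.00621 from edgeR). With replicates 1 and 2 it was 5.14 in *nup85* (SE 0.22) and 6.27 in WT (SE 0.31). Set side by side by replicate number, which does not pair the treatments, the ABA library of *nup85* was 47.5, 26.5 and 9.0 times its mock library, and that of WT 62.1, 109 and 7.90 times.

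*HAI3* was close to silent without ABA. It had 46.9, 43.6 and 22.6 CPM in *nup85* with ABA, against 0.0957, 0.133 and 0.502 CPM in *nup85* mock. WT had 37.9, 50.6 and 34.0 CPM with ABA, against 0, 0.152 and 0.423 CPM under mock treatment. The mock values rest on 9 reads over the 3 libraries in *nup85* and 7 in WT, and a count of 0 in WT mock replicate 1 still allows up to 0.265 CPM. From the pooled reads the ratio of ABA to mock was 127 in *nup85* (95% interval 66.9 to 279) and 178 in WT (95% interval 86.4 to 444), intervals that cover counting error only. In edgeR the adjusted p was 0.000676 in *nup85* and 0.000688 in WT. With replicates 1 and 2 the mock reads were 2 and 1, and the ratios were 406 (112 to 3350) in *nup85* and 753 (135 to 29700) in WT.

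*HAI2*, the nearest relative of *HAI3* by protein identity, was detectable in every mock library. It had 95.8, 73.8 and 76.5 CPM in *nup85* with ABA, against 9.86, 12.4 and 10.9 CPM in *nup85* mock, and 68.7, 71.1 and 72.5 CPM in WT with ABA, against 5.30, 4.09 and 10.6 CPM in WT mock. Its libraries with ABA lay close together in both genotypes, and among its mock libraries WT replicates 1 and 2 were lowest, with WT replicate 3 at 2.25 times their mean. The log2 fold change was 2.89 in *nup85* (SE 0.18, adjusted p = 0.000519 from edgeR) and 3.39 in WT (SE 0.36, adjusted p = 0.00165 from edgeR). Replicates 1 and 2 gave 2.94 in *nup85* and 3.89 in WT.

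*ABI1* and *ABI2*, in which dominant mutations gave the first ABA-insensitive phosphatase mutants, passed 4-fold in both genotypes. *ABI1* had 846, 740 and 894 CPM in *nup85* with ABA, against 160, 189 and 182 CPM in *nup85* mock. In WT it had 694, 683 and 646 CPM with ABA, against 131, 109 and 135 CPM under mock treatment. Replicate 3 did not stand apart for this gene, with 1.04 times the mean of replicates 1 and 2 in *nup85* mock and 1.13 times in WT mock. The log2 fold change of *ABI1* was 2.22 in *nup85* (SE 0.22, adjusted p = 0.00135 from edgeR) and 2.44 in WT (SE 0.21, adjusted p = 0.000935 from edgeR).

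*ABI2* was expressed below *ABI1* throughout and responded by a like fold. It had 198, 192 and 197 CPM in *nup85* with ABA, against 28.6, 35.4 and 43.0 CPM in *nup85* mock, and 155, 163 and 160 CPM in WT with ABA, against 23.7, 18.0 and 37.2 CPM in WT mock. The ABA libraries were tight and the mock libraries were not, with replicate 3 the highest in both genotypes. Its log2 fold change was 2.45 in *nup85* (SE 0.20, adjusted p = 0.000844 from edgeR) and 2.60 in WT (SE 0.29, adjusted p = 0.00186 from edgeR).

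*HAB1* and *HAB2*, which share 76.1% of their residues, differed in their response. *HAB1*, whose loss makes seedlings hypersensitive to ABA, had 363, 433 and 688 CPM in *nup85* with ABA, against 38.5, 44.0 and 172 CPM in *nup85* mock. WT had 492, 463 and 708 CPM with ABA, against 37.7, 31.2 and 171 CPM under mock treatment. Replicate 3 was the highest library in each of the 4 groups, with 4.18 times the mean of replicates 1 and 2 in *nup85* mock and 4.96 times in WT mock. The log2 fold change of *HAB1* was 2.54 in *nup85* (SE 0.64, adjusted p = 0.0247 from edgeR) and 2.80 in WT (SE 0.69, adjusted p = 0.0235 from edgeR), and with replicates 1 and 2 it was 3.27 (SE 0.16) and 3.81 (SE 0.18). Its call depended on single libraries. In *nup85* the adjusted p from edgeR was 0.0516 without ABA replicate 2, 0.0742 without mock replicate 1 and 0.08 without mock replicate 2, and in WT it was 0.0529 and 0.0504 without ABA replicate 1 or 2 and 0.0754 and 0.0553 without mock replicate 1 or 2.

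*HAB2*, a phosphatase of the same type that acts redundantly with *HAB1*, had 103, 116 and 107 CPM in *nup85* with ABA, against 57.6, 60.8 and 72.0 CPM in *nup85* mock. In WT it had 117, 112 and 113 CPM with ABA, against 59.1, 52.0 and 69.2 CPM under mock treatment. The treatments did not overlap, but the step was the smallest in the family. Its log2 fold change was 0.77 in *nup85* (SE 0.16, adjusted p = 0.0135 from edgeR) and 0.93 in WT (SE 0.17, adjusted p = 0.00802 from edgeR), well under the 4-fold limit. Over the alternative fits the largest adjusted p of *HAB2* from edgeR was 0.0723 in *nup85* and 0.0397 in WT.

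*AHG3*, a phosphatase that also acts on the SLAC1 anion channel of guard cells, was among the most abundant members and passed the test in both genotypes, with a change just below 4-fold. It had 689, 572 and 598 CPM in *nup85* with ABA, against 145, 170 and 217 CPM in *nup85* mock. In WT it had 430, 409 and 384 CPM with ABA, against 85.2, 48.5 and 180 CPM under mock treatment. WT mock replicate 3 lay 2.70 times above the mean of WT mock replicates 1 and 2. The log2 fold change was 1.80 in *nup85* (SE 0.24, adjusted p = 0.00303 from edgeR) and 1.97 in WT (SE 0.47, adjusted p = 0.0202 from edgeR). In WT it rose past the 4-fold limit with replicates 1 and 2 (2.66, adjusted p = 0.000857 from edgeR), without mock replicate 3 alone (2.62, adjusted p = 0.00412) and without ABA replicate 3 alone (2.02, adjusted p = 0.0325), and in *nup85* replicates 1 and 2 gave 2.00 (adjusted p = 4.49e-05), which rounds up from just under the limit. The result in WT did not hold in every alternative fit. There the largest adjusted p of *AHG3* from edgeR was 0.0785, and its smallest log2 fold change was 1.62. In *nup85* the largest adjusted p from edgeR was 0.0233.

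*AHG1*, which acts mainly in seeds and is not inhibited by most ABA receptors, was barely expressed. It had 0.487, 0.618 and 2.42 CPM in *nup85* with ABA, against 0, 0 and 0.502 CPM in *nup85* mock. In WT it had 0.778, 0.821 and 2.65 CPM with ABA, against 0, 0 and 0.211 CPM under mock treatment. Replicate 3 was the highest library in each group and the only mock library with any read, from 7 reads in *nup85* and 3 in WT. The gene was filtered out in *nup85*, where the groups overlapped, and in WT its adjusted p was 0.027 from edgeR, which became 0.0865 without mock replicate 1 and 0.0727 without mock replicate 2. From the pooled reads the ratio of ABA to mock was 6.04 in *nup85* (95% interval 2.78 to 15.6) and 16.3 in WT (5.44 to 80.5). Replicates 1 and 2 had 17 reads with ABA in *nup85* and 33 in WT, against 0 reads in either mock group. The observed ABA level was 3.33 times in *nup85* and 4.73 times in WT the level that 3 reads over the pooled mock libraries would give. These values leave out the counting error of the ABA reads. Neither they nor the intervals cover the spread between libraries.

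With replicates 1 and 2 alone the counts of responding members hardly moved. In *nup85* 6 of 8 members were called at 4-fold (3.84% of all genes) and 8 of 8 with no fold limit (25.6%). In WT 7 of 8 were called at 4-fold (4.14%), with *AHG3* in and *AHG1* not tested, and 8 of 8 with no fold limit (24%). With all 3 replicates the 8 members tested in both genotypes had the same order of fitted responses, *HAI3*, *HAI1*, *HAI2*, *HAB1*, *ABI2*, *ABI1*, *AHG3* and *HAB2*. In WT *AHG1* (3.90, SE 1.01, a fit that rests on 3 mock reads) stood between *HAI1* and *HAI2*. Neighbours from *HAI2* to *AHG3* lay within the sum of their standard errors in both genotypes, so their order is not resolved.

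**Figure D2:**
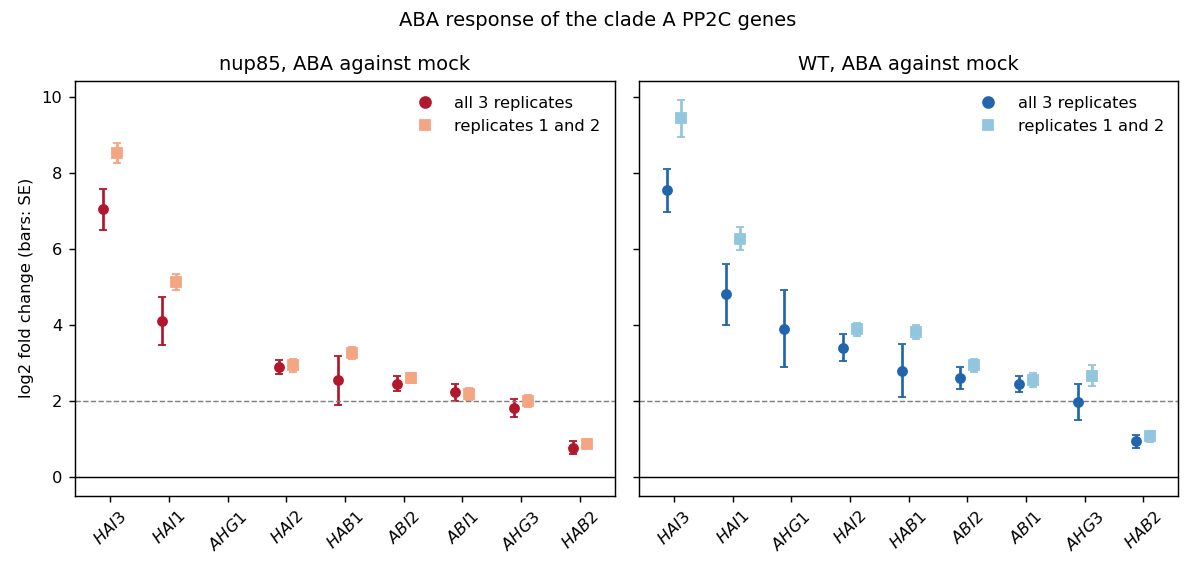
Log2 fold change of each member with ABA against mock in *nup85* (left) and WT (right), with bars of 1 SE; circles are fits to all 3 replicates, squares fits to replicates 1 and 2, and the dashed line marks 4-fold. The fitted value runs down from *HAI3* (7.05 in *nup85*, 7.54 in WT, both resting on few mock reads) to *HAB2* (0.77 and 0.93), and *AHG1* is drawn only where it could be tested.

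Levels of different members can be compared per kilobase of exon. With ABA, *ABI1* led in *nup85* with 381 ± 36.3 CPM per kb (SD, n = 3), followed by *AHG3* with 344 ± 34.1, whose ranges overlapped. *HAB1* (177 ± 61.3) and *HAI1* (157 ± 14.3) came next and overlapped each other, and then *ABI2* (85.7 ± 1.32), *HAI2* (43.0 ± 6.31), *HAB2* (41.0 ± 2.51), *HAI3* (25.2 ± 8.81) and *AHG1* (0.742 ± 0.683) followed, of which *HAI2* and *HAB2* overlapped. In *nup85* mock *AHG3* (98.4 ± 20.2 CPM per kb) and *ABI1* (81.7 ± 7.07) led with overlapping ranges, above *HAB1* (30.4 ± 27.1), *HAB2* (24.0 ± 2.86), *ABI2* (15.6 ± 3.16), *HAI1* (9.06 ± 8.12), *HAI2* (5.80 ± 0.669), *HAI3* (0.163 ± 0.15) and *AHG1* (0.106 ± 0.183), of which *HAB1* and *HAB2*, *ABI2*, *HAI1* and *HAI2*, and *HAI3* and *AHG1* overlapped their neighbours. The ranges of *HAB2* and *HAB1* thus overlapped under mock treatment and were apart with ABA, and *HAI1* ranked above *ABI2* and *HAB2* only with ABA.

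In WT with ABA, *ABI1* (311 ± 11.7 CPM per kb) stood apart at the top, and *AHG3* (226 ± 13.0), *HAI1* (210 ± 73.2) and *HAB1* (198 ± 48.1) formed a run in which each overlapped the next. *ABI2* (69.8 ± 1.85), *HAB2* (43.1 ± 1.12), *HAI2* (37.1 ± 1.01) and *HAI3* (27.3 ± 5.8) followed without overlap, and *AHG1* (0.895 ± 0.676) was last. In WT mock, *AHG3* (58.1 ± 37.8), *ABI1* (57.8 ± 6.45), *HAB1* (28.6 ± 28.2) and *HAB2* (22.7 ± 3.26) each overlapped the next, above *ABI2* (11.5 ± 4.31), *HAI1* (7.43 ± 7.38), *HAI2* (3.49 ± 1.81), *HAI3* (0.128 ± 0.143) and *AHG1* (0.0445 ± 0.077), where *ABI2*, *HAI1* and *HAI2*, and *HAI3* and *AHG1*, overlapped their neighbours. Leaving out *AHG1*, the highest mean level was 15.1 times the lowest with ABA and 604 times under mock treatment in *nup85*, and 11.4 and 454 times in WT. Leaving out *HAI3* as well, these spans were 9.29 and 17.0 in *nup85* and 8.38 and 16.6 in WT.

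Summed over the 9 genes, the level was 1280, 1150 and 1340 CPM per kb in *nup85* with ABA, against 211, 248 and 337 CPM per kb in *nup85* mock. In WT it was 1170, 1140 and 1070 CPM per kb with ABA, against 161, 121 and 288 CPM per kb under mock treatment. The mean was 4.74 times higher with ABA in *nup85* and 5.93 times in WT, or 5.29 and 8.19 times in replicates 1 and 2. The make-up of the family shifted as well. *HAI1*, *HAI2* and *HAI3* together made up 18.0% ± 1.49 of the sum in *nup85* with ABA (SD, n = 3), against 5.40% ± 1.64 in *nup85* mock, and 24.2% ± 5.83 in WT with ABA, against 5.19% ± 2.04 in WT mock. *HAB2* went the other way, with 3.28% ± 0.448 in *nup85* ABA, against 9.23% ± 1.11 in *nup85* mock, and 3.84% ± 0.148 in WT ABA, against 13.1% ± 3.67 in WT mock. *ABI1* and *AHG3* together held 57.8% ± 2.54 in *nup85* ABA, against 69.0% ± 7.25 in *nup85* mock, and 47.8% ± 0.208 in WT ABA, against 62.5% ± 5.38 in WT mock. The ranges of these shares were apart between treatments except for *ABI1* and *AHG3* in *nup85*, where they met at 60.6%. Taken alone, *AHG3* was lower with ABA without overlap, averaging 27.5% against 37.3% in *nup85* and 20.1% against 28.8% in WT. The share of *ABI1* overlapped between treatments, averaging 30.4% against 31.7% in *nup85* and 27.7% against 33.7% in WT. In both genotypes the *ABI1* share was lower with ABA in replicates 1 and 2 and higher in replicate 3. No test was made of the shares.

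**Figure D3:**
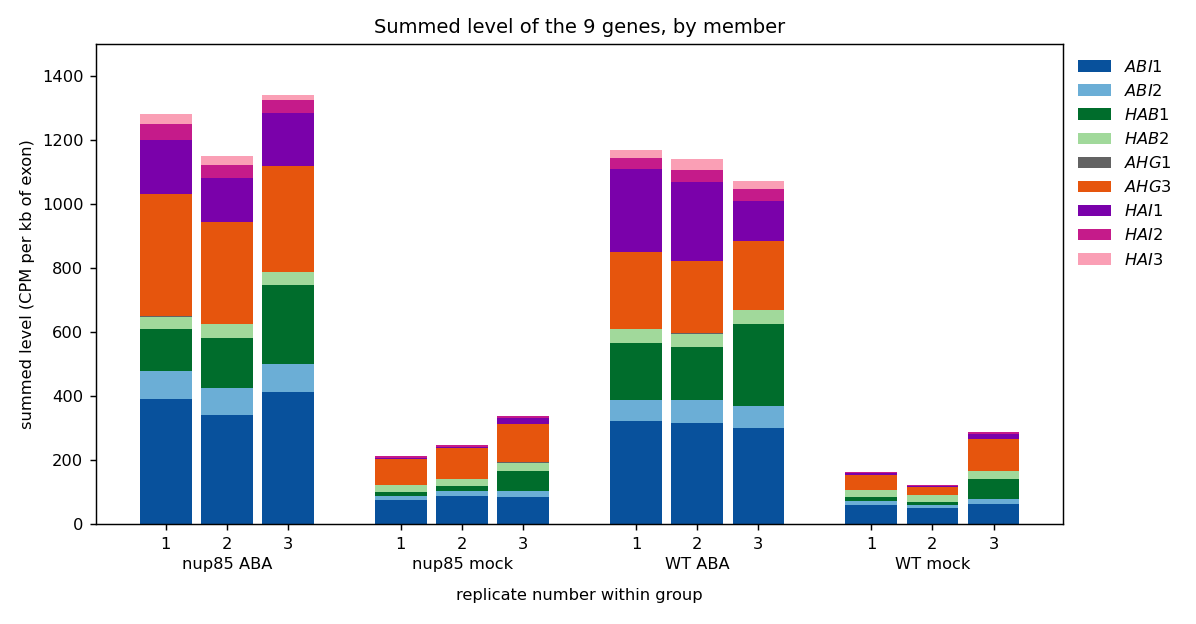
Summed level of the 9 genes in each library in CPM per kb of exon, stacked by member, with replicates 1, 2 and 3 side by side within each group. The ABA libraries reach 1070 to 1340 CPM per kb and the mock libraries 121 to 337, with replicate 3 the highest mock library of each genotype, and the 3 *HAI* genes average 18.0% of the library's sum in *nup85* ABA, against 5.40% in *nup85* mock, and 24.2% in WT ABA, against 5.19% in WT mock.

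Between genotypes under mock treatment, no member was called with all 3 replicates (0 of 7 tested). The same held for all genes (0 of 19606 called at 1.5-fold, 0%, with 1010 at an unadjusted p under 0.05, and 36 called by DESeq2, of which 0 were members). All 7 fitted differences were nonetheless above 0, from 0.07 (*HAB2*, SE 0.17) to 0.75 (*AHG3*, SE 0.46), with a median of 0.43 beside -0.01 over all genes. *ABI1* was the only member whose libraries labelled *nup85* all lay above those of WT (160, 189 and 182 CPM, against 131, 109 and 135 CPM), which was the case for 6.19% of genes. Its difference was 0.50 (SE 0.16, unadjusted p = 0.0172, adjusted p = 0.937 from edgeR).

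*AHG3* and *HAI2* had the largest mock differences, and in both they rested on replicates 1 and 2. *AHG3* was 1.71, 3.49 and 1.20 times as high in the libraries labelled *nup85* as in the WT library of the same number, and *HAI2* 1.86, 3.03 and 1.03 times. Replicates 1 and 2 alone called 0 members (0.0155% of all genes called), with an adjusted p from edgeR of 0.187 for *AHG3* (log2 difference 1.23, SE 0.26) and 0.176 for *HAI2* (1.21, SE 0.25). Same-numbered libraries of the genotypes deviated together from their group means, so a replicate block was also fitted. With the block on all 3 replicates 0 of 7 members were called (0.311% of all genes), while the block on replicates 1 and 2 called 2 of 7 higher in the libraries labelled *nup85* (1.37% of all genes), *AHG3* (1.27, SE 0.22, adjusted p = 0.0237 from edgeR) and *HAI2* (1.20, SE 0.26, adjusted p = 0.0448 from edgeR). DESeq2 on replicates 1 and 2 called *AHG3* only (adjusted p = 0.000923). *HAB1* and *HAI1*, whose replicate 3 ran so far above the others, had differences of 0.08 (SE 0.83) and 0.27 (SE 0.85) without the block and of 0.16 (SE 0.13, adjusted p = 0.597 from edgeR) and 0.30 (SE 0.23, adjusted p = 0.569 from edgeR) with it. By replicate number *HAB1* was 1.02, 1.41 and 1.01 times as high in the libraries labelled *nup85* as in WT.

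With ABA, no member was called between genotypes with all 3 replicates (0 of 9). Again no gene was (0 of 20270, 0%, with 995 at an unadjusted p under 0.05, and 87 called by DESeq2, of which 0 were members). The libraries labelled *nup85* lay above those of WT without overlap for 4 of 9 members, *ABI1*, *ABI2*, *AHG3* and *HAI2*, which was the case for 6.3% of genes. *AHG3* had the largest of these differences, with 689, 572 and 598 CPM in the libraries labelled *nup85*, against 430, 409 and 384 CPM in WT (log2 difference 0.60, SE 0.19, unadjusted p = 0.0150, adjusted p = 0.968 from edgeR). *ABI2* (0.29, SE 0.14), *ABI1* (0.29, SE 0.19) and *HAI2* (0.21, SE 0.15) differed by less. The median over the 9 members was -0.08, beside 0.00 over all genes. The replicate block on all 3 replicates called 0 of 9 members (1.37% of all genes), with *AHG3* nearest to the threshold at 0.60 (SE 0.12, adjusted p = 0.0688 from edgeR).

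*HAI1* was the only member whose call between genotypes with ABA was made by edgeR without replicate 3. In replicates 1 and 2 it had 345 and 293 CPM in the libraries labelled *nup85*, against 537 and 513 CPM in WT, whereas in replicate 3 it had 344 CPM, against 261 CPM in WT. The difference changed sign in that replicate. With replicates 1 and 2 the log2 difference was -0.71 (SE 0.13, adjusted p = 0.0455 from edgeR), 1 of 9 members, with 2.96% of all genes called in either direction. The block on replicates 1 and 2 gave -0.72 (SE 0.13, adjusted p = 0.00997 from edgeR), again 1 of 9 members lower, against 3.11% of all genes lower. With all 3 replicates the value was -0.42 (SE 0.30, adjusted p = 1.00 from edgeR) without the block and -0.35 (SE 0.23, adjusted p = 0.48 from edgeR) with it. *AHG3* moved in the opposite direction in the same libraries, by 0.59 (SE 0.14, adjusted p = 0.0793 from edgeR) with replicates 1 and 2, 0.58 (adjusted p = 0.0282 from edgeR, under 1.5-fold) with the block on them, and 0.59 (adjusted p = 0.00244, called) by DESeq2 on them. The WT ABA library of replicate 3 had 0.498 times the *HAI1* level of replicates 1 and 2, but leaving out any single library called 0 members.

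**Figure D4:**
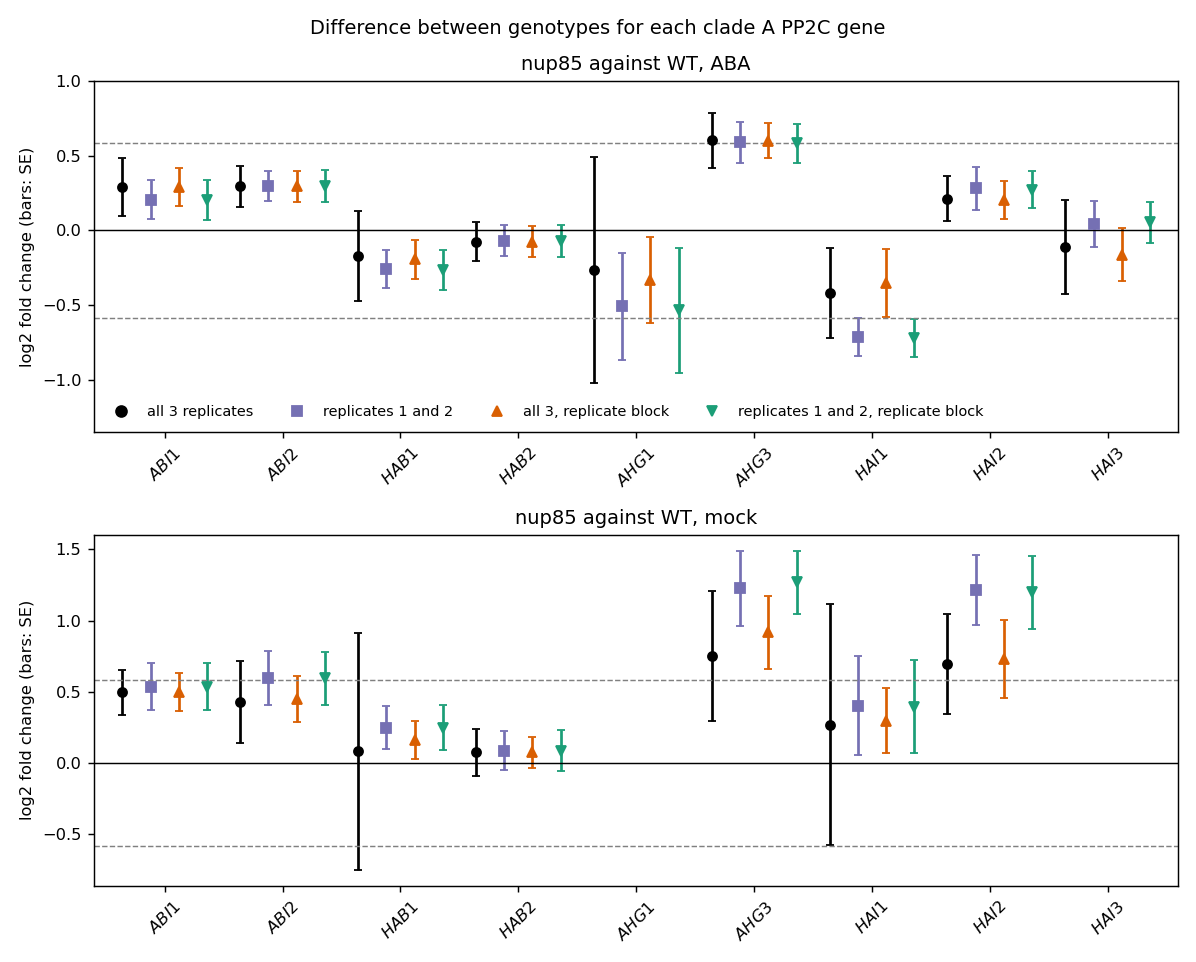
Log2 difference of each member between libraries labelled *nup85* and WT, with ABA (top) and under mock treatment (bottom), with bars of 1 SE; symbols are the 4 fits named in the legend, the replicate block being the replicate number as a term, and dashed lines mark 1.5-fold. *HAI1* with ABA lies below the lower line in the fits to replicates 1 and 2 (-0.71 and -0.72), *AHG3* near the upper line in each fit, and members too low to be tested under mock treatment are left blank.

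The change of the ABA response with genotype was tested as an interaction over the 12 libraries. It was called for 0 of 9 members and for 0 of 20574 genes (0%, 309 at an unadjusted p under 0.05, and 1 gene, not a member, by DESeq2). The fitted interaction was below 0 for all 9 members, that is a smaller response in the libraries labelled *nup85*, from -0.14 (*ABI2*, SE 0.33) to -1.37 (*AHG1*, SE 1.82), with a median of -0.25. Over all genes 47.0% were below 0, with a median of 0.02. In this fit, without a replicate block, the SE was larger than the value for every member except *HAI2* (-0.49, SE 0.39). With the block 0 of 9 members and 0 of 20574 genes were called. There *ABI1* (-0.215, SE 0.213), *AHG1* (-1.49, SE 1.02) and *HAI2* (-0.51, SE 0.375) were larger in size than their SE. With replicates 1 and 2 the interaction was below 0 for 8 of 8 members tested (49.3% of all genes), with 0 called (0.00976% of all genes). There, *HAI2* had -0.92 (SE 0.27, unadjusted p = 0.00732, adjusted p = 0.41 from edgeR), *HAI1* -1.10 (SE 0.37, unadjusted p = 0.0149, adjusted p = 0.453 from edgeR) and *HAB1* -0.51 (SE 0.22, unadjusted p = 0.0445, adjusted p = 0.534 from edgeR). Leaving out *nup85* mock replicate 3 alone turned the sign for 6 of the 9 members.

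Replicate 3 had a pattern of its own within the family. Under mock treatment its level relative to the mean of replicates 1 and 2 was 4.18 in *nup85* and 4.96 in WT for *HAI1*, and the same to 3 digits for *HAB1*, while it was 4.38 and 5.57 for *HAI3* and 1.22 and 1.24 for *HAB2*. *AHG3*, *HAI2* and *ABI2* had ratios of 1.38, 0.98 and 1.34 in *nup85* and of 2.70, 2.25 and 1.78 in WT. The ABA libraries of replicate 3 did not show this, with 1.08 in *nup85* and 0.498 in WT for *HAI1* and 0.5 and 0.769 for *HAI3*, except for *HAB1* (1.73 and 1.48) and *AHG1* (4.39 and 3.32). Of the maturing seed markers (*CRA1*, *CRU3*, *OLEO1* and *SESA1*), the summed level in the ABA libraries of replicate 3 was 0.373 CPM in *nup85* and 0.0737 CPM in WT, and *CRA1* made up 45.7 of the 56.9 CPM in *nup85* mock replicate 3. Their part in these results was not tested.

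The other genes of the pathway were counted in the same way. Of 14 PYR/PYL receptors, which bind the hormone, 9 were tested in each genotype, and 0 were higher and 2 lower at 4-fold. At that limit 3.87% of all genes were higher and 2.88% lower in *nup85*, and 4.06% higher and 3.43% lower in WT. With no fold limit 2 were higher and 3 lower in *nup85*, where 15.4% of all genes were higher and 2766 of 20001 lower. In WT 2 were higher and 5 lower, where 16.5% of all genes were higher and 2989 of 20062 lower. The median log2 fold change of the receptors was -0.87 in *nup85* and -1.13 in WT. *PYL4* fell by 2.67 in *nup85* (SE 0.19, adjusted p = 0.000568 from edgeR) and by 3.04 in WT (SE 0.33, adjusted p = 0.00181), and *PYL6* by 2.66 in *nup85* (SE 0.73, adjusted p = 0.0332) and by 4.67 in WT (SE 1.15, adjusted p = 0.0229), on the log2 scale. These 2 receptor genes fell in the libraries in which the phosphatase genes rose. Others went up: *PYL8* averaged 150 CPM with ABA, against 59.9 CPM in mock, in *nup85*, and 130 against 65.3 CPM in WT. *PYL7* averaged 45.2 against 20.4 CPM in *nup85* and 36.5 against 13.9 CPM in WT.

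Among 10 SnRK2 kinases, some of which are direct substrates of the phosphatases, 0 in *nup85* and 2 in WT were called at least 4-fold higher, against 3.87% of all genes in *nup85* and 4.06% in WT. With no fold limit 3 were higher and 1 lower in *nup85*, and 3 higher and 0 lower in WT, where 15.4% and 16.5% of all genes were higher. *SnRK2.6* (also *OST1*), the kinase that closes stomata, changed by 1.57 in *nup85* (SE 0.17, adjusted p = 0.00164 from edgeR) and 2.05 in WT (SE 0.21, adjusted p = 0.00163), and *SnRK2.7* by 1.78 (SE 0.21, adjusted p = 0.0019) and 2.06 (SE 0.39, adjusted p = 0.00973). Of the 5 bZIP factors, *ABI5* alone was called at 4-fold in both genotypes, with 3.40 in *nup85* (SE 0.39, adjusted p = 0.00179) and 3.46 in WT (SE 0.64, adjusted p = 0.00901). With no fold limit 3 of the 5 were higher in each genotype, against the same 15.4% and 16.5% of all genes. *ABF3* changed by 1.40 in *nup85* and 1.96 in WT (adjusted p = 0.041 and 0.027 from edgeR). *ABF4* changed by 0.81 and 1.14 (adjusted p = 0.0069 and 0.00542 from edgeR). The median change was 0.64 for the kinases and 0.99 for the bZIP factors in *nup85*, and 0.47 and 1.14 in WT.

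PP2Cs of other clades were counted next. Of 9 clade D genes, some of which act in auxin-driven growth at the plasma membrane, 0 were called at 4-fold in either genotype. At that limit 3.87% of all genes were higher in *nup85* and 4.06% in WT. With so few genes in each list below, a count of 0 lies near these shares. With no fold limit 4 clade D genes in *nup85* and 3 in WT were higher, against 15.4% of all genes in *nup85* and 16.5% in WT. *PP2C.D8* changed most among those that passed in both, by 1.70 in *nup85* (SE 0.20) and 1.84 in WT (SE 0.26), with an adjusted p of 0.00191 and 0.00384 from edgeR. Of the 4 clade B genes, which act on MAP kinases, 0 were called at 4-fold among 2 tested in *nup85* and 3 tested in WT, against the same 3.87% and 4.06% of all genes. With no fold limit 1 in *nup85* and 0 in WT were higher, against the same 15.4% and 16.5%. Of 8 genes for binders and ubiquitin ligases of clade A phosphatases, 0 were called at 4-fold in either genotype, against the same 3.87% and 4.06% of all genes. *RGLG1*, a ligase that targets AHG3 for degradation, was higher in both (0.81 in *nup85*, adjusted p = 0.00858, and 1.18 in WT, adjusted p = 0.0108, from edgeR). The median log2 fold change was 0.80 and 0.66 for clade D, 0.34 and 0.82 for the few clade B genes tested, and 0.21 and 0.11 for the binders and ligases, *nup85* before WT, beside 2.49 and 2.80 for clade A.

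For each member the gene with the most similar profile was sought among 20574 genes, by the root mean square difference of log2 CPM over the 12 libraries after centring each gene on its own mean. None of the 9 nearest genes was another clade A PP2C, a family that makes up only 9 of the 20574 genes. *ABI1* lay nearest to *SEH* (AT2G26740, a soluble epoxide hydrolase, 0.161), *ABI2* to *KCS3* (AT1G07720, 0.192), *AHG3* to the NAC factor gene *ATAF1* (AT1G01720, 0.238), *HAI1* to AT3G48510 (0.488), *HAI2* to *DIP2* (AT5G03210, 0.365), *HAI3* to the expansin gene *EXPA16* (AT3G55500, 0.619), *HAB1* to AT5G61820 (0.306), *HAB2* to *VAP27-1* (AT3G60600, 0.0673) and *AHG1* to AT5G51440 (0.225). The mean profile of the 6 members with at least a 4-fold response in both genotypes was most like that of *AOX2* (AT5G64210, alternative oxidase, 0.354), *AFP3* (AT3G29575, an ABI5-binding protein, 0.374), AT3G17110 (0.375), AT3G03341 (0.378) and AT4G37220 (0.401). These distances describe libraries that share their treatment and depth. They depend on the size of a gene's response, so they do not rank the members.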

How the data were processed

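Per the study's methods, reads were trimmed to 70 bases and mapped to TAIR10 with TopHat2, and the authors deposited raw counts per gene from featureCounts, without normalization. The strand setting and annotation release are not given in the sources used here. Each comparison was fitted to the counts of its own libraries with edgeR 4.0.16 in R 4.3.3 (TMM, filterByExpr with a minimum count of 10, quasi-likelihood test, Benjamini-Hochberg adjustment over all genes), which was tested on simulated data. Calls needed an adjusted p under 0.05 and a change of 4-fold between treatments or 1.5-fold between genotypes. Standard errors came from the log2 fold change and its F statistic. CPM were scaled over the 12 libraries, and exon lengths and sequences were read from RefSeq TAIR10.1. Alternatives were replicates 1 and 2, single libraries left out, replicate blocks, other scalings, no filter, no fold limit, 1 fit over all groups and DESeq2 1.42.0. DESeq2 on replicates 1 and 2, and the fits to replicates 1 and 2 or with the block without fold limit, were added after seeing the data. Deviations of same-numbered libraries of the genotypes correlated at 0.493, 0.48 and 0.733 under mock treatment and at 0.635, 0.559 and 0.764 with ABA, each over 0.1, so the numbers were taken as pairs there. With replicates 1 and 2 alone these correlations were 0.198 and 0.247. Named were all members, *NUP85*, up to 4 genes of each pathway list with the largest change among those called in WT, and the nearest genes by profile. *PP2C.D8*, *RGLG1*, *PYL7* and *PYL8* were named after their values were seen. The members and lists were chosen with earlier results of these data known.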

Additional observations from a re-analysis of the deposited data

How the results depend on the processing

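The number of members called at 4-fold for the ABA response depended on single libraries, more so in WT. Leaving out 1 library gave 5 to 6 of 8 members in *nup85*, where 640 to 801 genes were called higher in all. In WT it gave 5 to 8 of 9 members, where 666 to 842 genes were called higher, with 20224 to 20471 tested. With the replicate block WT had 8, with *AHG3* at 2.18, where 810 of 20062 genes were called higher. In the treatment comparisons same-numbered libraries did not all deviate together (0.247, 0.0438 and 0.237 in *nup85*; 0.286, -0.102 and 0.229 in WT), so the block there is no paired test. Upper-quartile scaling moved the median of all genes in WT to -0.15 and turned no member. Between genotypes the count of called members was 0 with all 3 replicates. Under mock treatment it was 2 with the replicate block on replicates 1 and 2 and 1 with DESeq2 on them, and 438 and 176 genes were called in all, against 0 (3 on replicates 1 and 2, 61 with the block, 36 with DESeq2). With ABA it was 1 on replicates 1 and 2 with or without the fold limit, 1 with the block on them and 2 with DESeq2 on them, and 588 (624 without the fold limit), 1200 and 812 genes were called, against 0 (277 with the block, 279 with the block and no fold limit, 87 with DESeq2, 3 in 1 fit over all groups). For the interaction, 2 genes were called on replicates 1 and 2, 1 with DESeq2 and 69 with DESeq2 on replicates 1 and 2, and 0 members. The cause was not tested.

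Signs between genotypes changed for some members when single libraries were left out, which also breaks the pair of that number. This gave a mock difference of -0.97 to 1.31 for *HAB1*, -0.028 to 0.19 for *HAB2* and -0.80 to 1.49 for *HAI1*, and an ABA difference of -0.47 to 0.037 for *HAB1*, -1.36 to 0.58 for *AHG1* and -0.31 to 0.16 for *HAI3*. *HAI3* with ABA was also above 0 on replicates 1 and 2 (0.042), with the block on them (0.053) and with DESeq2 on them (0.040). The interaction ranged from -0.47 to 0.068 for *ABI2*, -1.47 to 0.80 for *HAB1*, -4.98 to 3.35 for *AHG1*, -0.80 to 0.19 for *AHG3*, -1.91 to 0.37 for *HAI1* and -2.25 to 0.78 for *HAI3*. Shares of the summed level changed by more than 1 SD in 13 of 36 values without division by gene length. Depth limits *AHG1* and mock *HAI3*, with at most 7 reads a mock library.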
